A study of Mus musculus with 9 samples.

Results

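The 10 genes of inflammasome signalling and pyroptosis described here were followed across the 9 RNA-seq libraries of MLO-Y4 cells, a mouse cell line with osteocyte traits. They were chosen by name from the 56748 genes of the table as executioners and sensors of this pathway, and all 10 were among the 13812 genes with enough reads to be tested. The genes were the gasdermins Gsdmd and Gsdme, the inflammatory caspases Casp1, Casp4 and Casp12, the adaptor Pycard, the cytokine Il18, and the sensors Naip2, Naip5 and Naip6. In the 24 h and 48 h groups, MLO-Y4 cells shared a transwell for 24 or 48 hours with primary articular chondrocytes from young C57BL/6J mice that had first received 10 ng/mL interleukin-1β for 6 h. In the control group the chondrocytes were not stimulated, and the labels do not give how long that co-culture lasted. Each group had 3 libraries. Time in co-culture and the stimulated chondrocytes therefore cannot be told apart in a comparison with control. In the labels, the 48 h samples carry the line names MLO-Y5, MLO-Y6 and MLO-Y7, while the protocols speak of MLO-Y4 for all samples. MLO-Y4 is a single immortalised line, so the libraries are not separate donors. Nothing states that the libraries came from separate cultures, so the p-values measure the spread between these samples, which may be technical.

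In pyroptosis a cell dies by lysis after pores open in its membrane. In the canonical route a cytosolic sensor recruits the adaptor ASC, encoded by Pycard, which gathers and activates caspase-1. In the non-canonical route mouse caspase-4, long known as caspase-11, binds intracellular lipopolysaccharide itself. Both caspases cut gasdermin D, whose released end forms pores in the plasma membrane, and caspase-1 also matures interleukin-18. Gasdermin E is a related pore-forming protein that other proteases cut. NAIP proteins recognise bacterial flagellin or parts of the type III secretion system and then assemble with NLRC4. In bone, inflammasome activity is well known from cells of the myeloid lineage, and osteocytes are the cells that osteoblasts become once bone has formed around them.

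Library totals were 12250628 to 15956441 counts in control, 14440454 to 15558585 at 24 h and 16458398 to 18515456 at 48 h. The 48 h libraries were thus the deepest, and thinning all libraries at random to the smallest total left 7 members called higher and 1 lower at 48 h versus control. Levels are given in CPM, read counts scaled to a common library total,, and the smallest level resolved, 3 counts, was 0.160 to 0.245 CPM depending on the library. This floor covers counting error only. In bulk RNA, fewer cells of a type and less RNA per cell cannot be told apart. Of 12 osteocyte and osteoblast markers, Mepe and Fgf23 had 0 counts in every library, Sost at most 1 and Dmp1 at most 6, whereas Gja1, Col1a1, Bgn, Sparc, Pdpn and Phex were well detected. The summed level of all 12 was 4491 to 4705 CPM in control, 4594 to 4715 CPM at 24 h and 5363 to 5441 CPM at 48 h. That sum followed Gja1, which was higher at 48 h versus control by 0.69 on the log2 scale. Of the 8 tested markers Phex (0.43) and Pdpn (0.15) were also higher, Col1a1 (-0.14), Alpl (-0.38) and Bglap (-0.59) were lower, and Bgn and Sparc were not called. Over all tested genes 22.0% were called higher and 24.4% lower in the same comparison.

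None of the 10 genes was called at 24 h versus control, and 9 were called at 48 h, all but Il18. At 24 h versus control, 0 members were called higher and 0 lower at an adjusted p under 0.05, by edgeR, DESeq2 and limma-voom alike, against a background of 3.25% of all tested genes called higher and 2.90% called lower. At an unadjusted p under 0.05 there were 3 members (Casp4 upwards, Gsdme and Casp12 downwards). Leaving out control replicate 2 made Casp4 a higher call (adjusted p 0.0299), as did leaving out 24 h replicate 1 (0.0327), and leaving out 24 h replicate 2 made Gsdme a lower call (0.0443). At 48 h versus control 8 members were called higher and 1 lower, beside 22.0% and 24.4% of all genes. Compared directly with 24 h, 9 members were higher and 1 lower at 48 h, beside 23.7% and 25.4% of all genes. The median log2 fold change of the members was 1.03 at 48 h and -0.018 at 24 h versus control, and 1.10 for 48 h versus 24 h, against medians over all tested genes of -0.002, -0.004 and -0.002. The comparisons share libraries, so they are not independent of each other. Several of these genes were also among those that the study displayed from the same libraries, so their direction is not independent evidence.

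Library by library the picture was the same. At 48 h all 3 libraries lay above all control libraries for 9 members and below them for 1, where 25.7% and 27.4% of all tested genes did so. At 24 h no member lay wholly above control and 1 (Casp12) lay wholly below, where 10.3% and 11.2% of all genes did so. Between 48 h and 24 h the count was again 9 above and 1 below, where 29.1% and 30.3% of all genes did so.

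**Figure D1:**
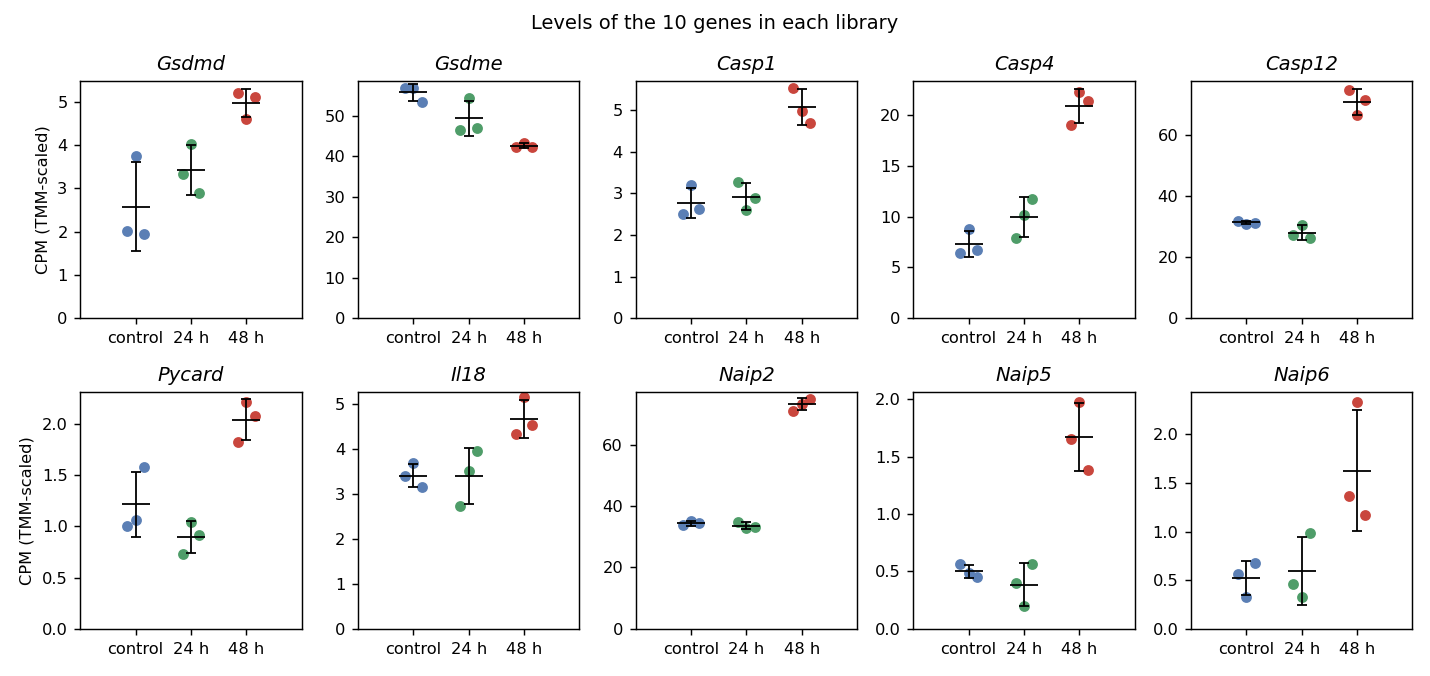
Level of each of the 10 genes in TMM-scaled CPM (vertical axis, from 0) in the 3 groups (horizontal axis). Points are libraries, and bars the mean and SD of 3 libraries. Casp12 and Naip2 stood at 26.1 to 35.2 CPM in control and 24 h libraries and at 66.3 CPM or more in all 48 h libraries, while Gsdme was lower at 48 h than in any control library.

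The pore-forming gasdermins moved in opposite directions. Gsdmd (chromosome 15, 75734176 to 75739257, GRCm39) had 2.01, 3.76 and 1.95 CPM in the control libraries, 3.33, 4.03 and 2.89 CPM at 24 h, and 5.19, 4.61 and 5.12 CPM at 48 h. Control replicate 2 stood well above the other two and inside the 24 h range, while all 48 h libraries lay above every other library. The means were 2.57 ± 1.03, 3.42 ± 0.576 and 4.97 ± 0.318 CPM (SD, n = 3). The log2 fold change at 48 h versus control was 0.97 (SE 0.23, adjusted p 0.00189), equal to 1.96-fold. It ranged from 0.82 to 1.33 when single libraries were left out, the highest value being that without control replicate 2, and the call held each time. The value at 24 h versus control was 0.44 (95% interval -0.077 to 0.95, adjusted p 0.362). The step from 24 h to 48 h was 0.54 (adjusted p 0.0472) and was fragile. That call was lost without 24 h replicate 1 (adjusted p 0.108) or 3 (0.150), without 48 h replicate 1 (0.112), 2 (0.0620) or 3 (0.104), and under DESeq2 (0.0998).

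Gsdme (chromosome 6, 50165868 to 50240842) was far more abundant. Its control libraries held 56.9, 56.8 and 53.4 CPM, those at 24 h 46.5, 54.4 and 47.0 CPM, and those at 48 h 42.2, 43.2 and 42.3 CPM. The 48 h libraries lay below all others, while 24 h replicate 2 reached into the control range. Its change on the log2 scale was -0.39 (SE 0.07, adjusted p 0.000128) for 48 h versus control, -0.18 (adjusted p 0.157) at 24 h versus control and -0.21 (adjusted p 0.0149) for 48 h versus 24 h. The last of these fell short without 24 h replicate 2 (-0.13, adjusted p 0.141), without 48 h replicate 3 (adjusted p 0.0507) and after thinning (adjusted p 0.0520). The annotated span of Gsdme overlaps that of Pals2 on the opposite strand by 10052 bases. Pals2 had 1348 to 2176 counts per library and itself fell by 0.74 on the log2 scale at 48 h versus control (adjusted p 4.39e-09). The strand setting of the counting is not given in the sources used here, so reads of the 2 genes may not have been kept apart and the Gsdme values are uncertain for that reason.

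Set against gene length, the balance between the gasdermins shifted. The Gsdmd to Gsdme ratio of CPM per kilobase was 0.189, 0.354 and 0.196 in control, 0.384, 0.398 and 0.330 at 24 h, and 0.660, 0.572 and 0.649 at 48 h. All 48 h ratios lay above all others, and the control and 24 h ratios overlapped through control replicate 2. Gsdme remained the more abundant transcript per length in every library. The size of the ratio, but not its order among libraries, depends on the gene lengths used. For Gsdme this was 12742 bases, against 2240 for its canonical transcript. The other 7 gasdermins listed (Gsdma, Gsdma2, Gsdma3 and 4 Gsdmc genes) had at most 5 counts in any library and were not tested.

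The 3 inflammatory caspases lie side by side on chromosome 9, within 74.5 kb (5298508 to 5373032), on the same strand. All 3 were called higher at 48 h and none at 24 h. Casp1 (5298508 to 5307290), which encodes the interleukin-converting enzyme itself, had 2.51, 3.19 and 2.63 CPM in control, 3.27, 2.60 and 2.89 CPM at 24 h and 5.54, 4.97 and 4.69 CPM at 48 h. Control and 24 h libraries were intermixed and the 48 h libraries stood clear of both. Against control Casp1 changed by 0.87 on the log2 scale at 48 h (SE 0.19, adjusted p 0.000787), while the value was 0.08 (adjusted p 0.889) at 24 h. The step from 24 h to 48 h was 0.79 (adjusted p 0.00137).

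Casp4 (5308828 to 5336783), the lipopolysaccharide-binding caspase, showed the largest change of the 3. Its libraries held 6.46, 8.82 and 6.69 CPM in control, 7.87, 10.1 and 11.8 CPM at 24 h and 19.0, 22.2 and 21.3 CPM at 48 h. At 24 h replicates 2 and 3 were above every control library and replicate 1 was not. The change at 48 h versus control was 1.52 (SE 0.14, adjusted p 6.76e-08), equal to 2.87-fold, and that for 48 h versus 24 h was 1.07 (adjusted p 2.31e-06). The 24 h value versus control was 0.45 (95% interval 0.12 to 0.77, adjusted p 0.101), and besides the libraries named above the call also turned on the filter, passing with no filter on low counts (adjusted p 0.0194).

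Casp12 (5345430 to 5373032), a relative of these caspases tied to endoplasmic reticulum stress, was the most abundant of the 3. It had 31.9, 31.0 and 31.1 CPM in control, 27.2, 30.6 and 26.1 CPM at 24 h and 74.8, 66.3 and 71.5 CPM at 48 h. It was the 1 member whose 24 h libraries all lay below control, by a narrow margin. The change at 48 h versus control was 1.18 on the log2 scale (SE 0.07, adjusted p 2.55e-10), beside -0.16 (adjusted p 0.264) at 24 h versus control and 1.34 (SE 0.07, adjusted p 4.33e-11) for 48 h versus 24 h. On the log2 scale the 95% interval of Casp12 at 48 h versus control, 1.03 to 1.33, overlapped those of Casp1 (0.48 to 1.26) and Casp4 (1.22 to 1.81), and differences among the 3 were not tested.

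The sequence before each start site was read because all 3 genes were called higher at 48 h. For each member the 300 bases upstream of the canonical GENCODE transcript were taken from GRCm39 and searched on both strands for 6 motifs, and no base lay in more than 1 of them. The windows of Casp1 (chr9:5298208-5298507, plus strand) and Casp12 (chr9:5345115-5345414, plus strand) are shown 5′ to 3′ with the matches in capitals. In Casp1 this is a single palindromic stretch, CACGTG, which holds the searched hypoxia response core ACGTG on both strands. In Casp12 it is a STAT-type TTCNNNGAA.
Casp1: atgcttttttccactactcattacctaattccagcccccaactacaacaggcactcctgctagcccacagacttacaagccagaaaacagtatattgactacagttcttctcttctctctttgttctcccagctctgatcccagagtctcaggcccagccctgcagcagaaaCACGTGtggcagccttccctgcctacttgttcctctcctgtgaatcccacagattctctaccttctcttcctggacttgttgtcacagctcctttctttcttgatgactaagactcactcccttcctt
Casp12: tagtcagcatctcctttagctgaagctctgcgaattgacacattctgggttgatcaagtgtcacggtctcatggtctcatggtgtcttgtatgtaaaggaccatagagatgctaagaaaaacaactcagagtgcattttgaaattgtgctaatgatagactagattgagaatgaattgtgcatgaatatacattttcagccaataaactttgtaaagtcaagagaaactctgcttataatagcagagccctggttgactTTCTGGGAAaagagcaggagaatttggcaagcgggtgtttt
The Casp1 match ran from base -128 to -123 before the start and the Casp12 match from -41 to -33. ACGTG was found in 1 of the 10 member windows, Casp1, and in 19.7% of the windows of 21770 protein-coding genes. TTCNNNGAA was found in 2 member windows, Casp12 and Naip2, and in 9.20% of all windows. The interferon-type GAAANNGAA, the NF-kB-type GGANNTTCC and the AP-1-type TGANTCA were in none of the 10 windows and in 9.29%, 4.48% and 7.38% of all windows. A longer NF-kB-type form, GGG followed by any 3 bases and TTCC, was added after such a match had been seen in Casp4. It matched Casp4 from base -87 to -78 and from -33 to -24, Il18 from -152 to -143, and 5.44% of all windows. The windows of Casp4, Il18, Gsdmd, Gsdme and Naip6 overlap annotated exons of their own genes, and that of Casp4 is not shown whole. The Il18 window (chr9:50476374-50476673) lies inside the annotated gene, which starts at 50466127. Matches and their absence in these windows thus do not describe sequence wholly upstream of the genes. No motif was common to all 3 caspase windows.

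Pycard (chromosome 7, 127588880 to 127593039), the adaptor that joins sensors to caspase-1, was low throughout. It had 1.00, 1.06 and 1.58 CPM in control, 0.733, 1.04 and 0.916 CPM at 24 h and 1.83, 2.21 and 2.08 CPM at 48 h, on 11 to 39 counts per library. The 48 h libraries were the 3 highest, and control replicate 3 was the nearest to them. Its log2 fold change at 48 h versus control was 0.75 (SE 0.28, adjusted p 0.0368), but this call was lost when control replicate 1 (adjusted p 0.131) or 2 (0.103) or 48 h replicate 2 (0.0993) or 3 (0.0843) was left out, and under DESeq2 (0.119), no filter (0.0677) or thinning (0.101). Against 24 h the rise was 1.18 (SE 0.29, adjusted p 0.00274) and kept its call in all of those settings. The value at 24 h versus control was -0.43 (95% interval -1.12 to 0.26, adjusted p 0.542).

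Il18 (chromosome 9, 50466127 to 50493140), whose product is matured by caspase-1, was the member with the smallest upward change at 48 h. Its libraries held 3.39, 3.68 and 3.16 CPM in control, 2.73, 3.51 and 3.95 CPM at 24 h and 4.34, 5.15 and 4.53 CPM at 48 h. All 48 h libraries lay above all others, yet the margin over 24 h replicate 3 was small. The log2 fold change was 0.46 (SE 0.18) at 48 h versus control, with an adjusted p of 0.0507 that missed the threshold. Without 24 h replicate 1 (0.0451) or 3 (0.0432) it passed, as it did under 2 other scalings (0.0456 and 0.0416), a stricter filter (0.0417) and the fit of 2 groups (0.0442). For 48 h versus 24 h it was also 0.46 and passed (adjusted p 0.0444), but not without 24 h replicate 1 (0.198) or 2 (0.0677), nor without 48 h replicate 1 (0.0566), 2 (0.143) or 3 (0.0727), and not under DESeq2 (0.127), no filter (0.0902) or thinning (0.0550). The 24 h value versus control was -0.004 (95% interval -0.41 to 0.41). Bco2 and Tex12, which overlap Il18 on the opposite strand, had at most 6 counts.

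**Figure D2:**
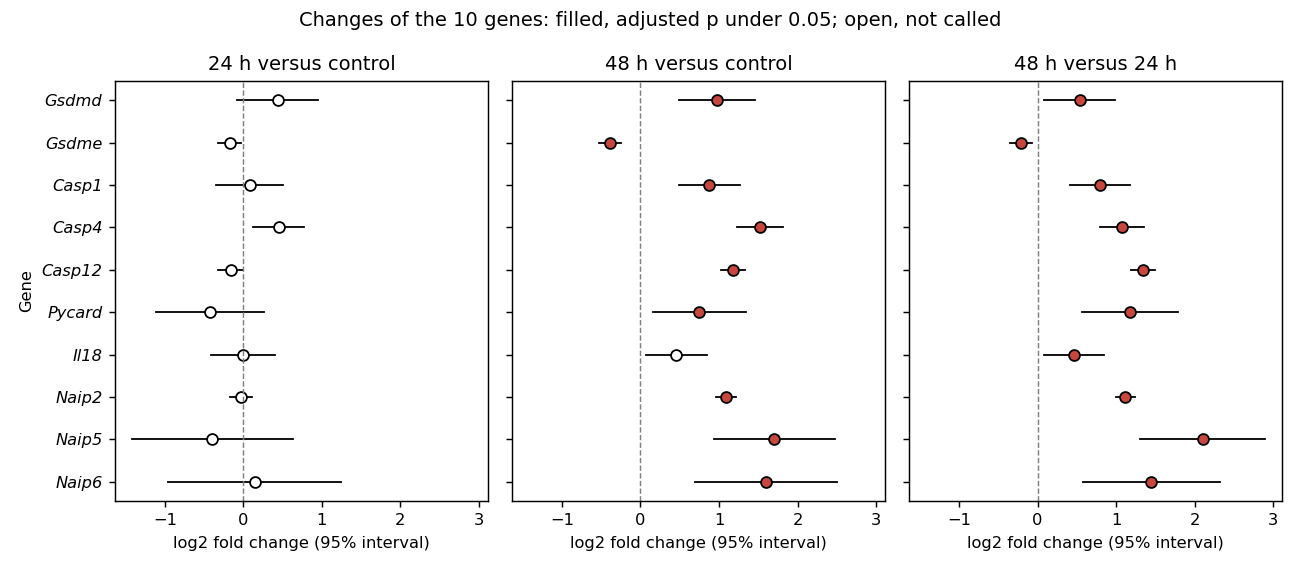
Log2 fold change (horizontal axis) of each of the 10 genes (vertical axis) in the 3 comparisons, with 95% intervals from the edgeR fit. Filled points had an adjusted p under 0.05. At 24 h versus control no point is filled, at 48 h versus control all but Il18 are, and for 48 h versus 24 h all are. Gsdme lies left of 0 in each panel.

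The NAIP sensors form a cluster on the minus strand of chromosome 13, from 100280571 to 100454182. Naip2 dominated it, and all 3 members were called higher at 48 h and none at 24 h. Naip2 (100280571 to 100338600), whose protein recognises the inner rod of type III secretion systems, had 33.7, 35.2 and 34.4 CPM in control, 34.9, 32.9 and 33.2 CPM at 24 h and 71.1, 73.4 and 75.0 CPM at 48 h. Its replicates were tight, and the control and 24 h libraries could not be separated. Naip2 changed by 1.09 on the log2 scale at 48 h versus control (SE 0.06, adjusted p 8.20e-11), beside -0.03 (95% interval -0.17 to 0.10, adjusted p 0.857) at 24 h versus control and 1.12 (adjusted p 4.47e-11) for 48 h versus 24 h. The 300-base window before the start of its canonical transcript (chr13:100333656-100333955, minus strand) holds the other TTCNNNGAA match, in capitals, from base -178 to -170. Other annotated transcripts of Naip2 start farther upstream.
Naip2: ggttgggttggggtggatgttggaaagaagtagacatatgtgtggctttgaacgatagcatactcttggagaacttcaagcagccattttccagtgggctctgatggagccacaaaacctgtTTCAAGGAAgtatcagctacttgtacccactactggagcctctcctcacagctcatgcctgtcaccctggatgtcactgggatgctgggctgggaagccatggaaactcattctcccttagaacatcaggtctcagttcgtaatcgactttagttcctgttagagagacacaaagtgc

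Naip5 (100348247 to 100382831) and Naip6 (100417629 to 100454182), which both recognise flagellin, were near the limit of detection. Naip5 had 9, 6 and 6 counts in control, 6, 3 and 8 at 24 h and 29, 33 and 26 at 48 h, or 0.502 ± 0.0576, 0.386 ± 0.185 and 1.67 ± 0.295 CPM (SD, n = 3). Naip6 had 9, 4 and 9 counts in control, 7, 5 and 14 at 24 h and 24, 39 and 22 at 48 h, or 0.522 ± 0.179, 0.593 ± 0.348 and 1.63 ± 0.622 CPM. For both genes all 48 h libraries lay above all other libraries. The log2 fold change at 48 h versus control was 1.71 (95% interval 0.93 to 2.48, adjusted p 0.000899) for Naip5 and 1.60 (0.69 to 2.50, adjusted p 0.00528) for Naip6. For 48 h versus 24 h it was 2.10 (adjusted p 0.000163) and 1.45 (adjusted p 0.00733), and the Naip6 call was lost without 48 h replicate 2 (1.10, adjusted p 0.0583). Both intervals at 24 h versus control were wide, -1.42 to 0.63 and -0.95 to 1.24. The intervals of Naip2, Naip5 and Naip6 at 48 h versus control overlapped, and differences among them were not tested.

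Reads of these paralogs can be shared. The canonical transcripts of Naip5 and Naip6 were 96.9% identical over 4398 aligned bases, against 89.1% for Naip2 and Naip5 over 3086 and 88.7% for Naip2 and Naip6 over 3093. Windows of 150 bases, the length of 1 read, occurred exactly in a transcript of another gene for 8.25% of Naip5, 1.92% of Naip6 and 0.419% of Naip2, and for 0 of the windows of the other 7 members. For Naip5 the partners were mainly Naip3 (5.84% of windows) and Naip6 (2.41%). The longest exact runs common to pairs of the transcripts are shown, all within coding sequence. The Naip5 and Naip6 run spans 229 bases (2462 to 2690 of the Naip5 transcript) and the Naip2 and Naip5 run 140 bases (1815 to 1954 of the Naip2 transcript).
Naip5 and Naip6: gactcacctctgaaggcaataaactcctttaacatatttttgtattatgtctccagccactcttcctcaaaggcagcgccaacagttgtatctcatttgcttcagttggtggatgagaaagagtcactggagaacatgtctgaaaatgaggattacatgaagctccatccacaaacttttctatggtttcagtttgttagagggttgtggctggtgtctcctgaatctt
Naip2 and Naip5: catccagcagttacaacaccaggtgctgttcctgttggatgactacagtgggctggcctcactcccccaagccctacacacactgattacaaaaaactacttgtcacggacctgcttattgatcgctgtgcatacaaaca
How the counting treated a read that falls in such a run is not given in the sources used here, so the split between Naip5 and Naip6 is uncertain. The caspases did not share such runs. Casp1 and Casp4 aligned at 67.0% identity over 415 bases and Casp12 and Casp4 at 68.9% over 425, and the longest exact run was 21 bases, between Casp4 and Casp12.

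Summing the counts of Naip2, Naip5 and Naip6 removes the split among the 3 genes, though not reads shared with Naip1 or Naip3. The sum was 35.5 ± 0.612 CPM in control, 34.6 ± 1.16 CPM at 24 h and 76.5 ± 2.01 CPM at 48 h (SD, n = 3). On the log2 scale the sum changed by 1.11 at 48 h versus control (SE 0.06, adjusted p 6.04e-11), beside -0.03 (adjusted p 0.847) at 24 h versus control and 1.14 (adjusted p 3.08e-11) for 48 h versus 24 h. Naip2 supplied 96.8 to 97.7% of the summed counts in control, 95.5 to 98.4% at 24 h and 94.5 to 96.7% at 48 h, so the sum mostly follows Naip2.

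Per kilobase of gene length, the order of levels in control was Casp12 (8.16 CPM per kilobase), Naip2 (7.11), Gsdme (4.37), Il18 (3.30), Casp4 (1.97), Gsdmd (1.08), Casp1 (0.885), Pycard (0.320), Naip5 (0.0964) and Naip6 (0.0765). The gene length used was 12742 bases for Gsdme and 1031 for Il18, against 2240 and 1356 for their canonical transcripts. Places in the order depend on that choice, and an order by transcript length was not examined. The ranges of 3 libraries overlapped between Gsdmd and Casp1 and between Naip5 and Naip6, and the other neighbours in the order were apart. At 24 h Casp12 (7.28) and Naip2 (6.94) overlapped, as did Gsdme with Il18, Il18 with Casp4, and Naip6 with Naip5. At 48 h the order became Casp12 (18.4), Naip2 (15.1), Casp4 (5.62), Il18 (4.53), Gsdme (3.34), Gsdmd (2.09), Casp1 (1.62), Pycard (0.537), Naip5 (0.321) and Naip6 (0.238). Here only Naip5 and Naip6 overlapped. On these gene lengths Casp4 thus moved from the fifth to the third place and Gsdme from the third to the fifth.

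**Figure D3:**
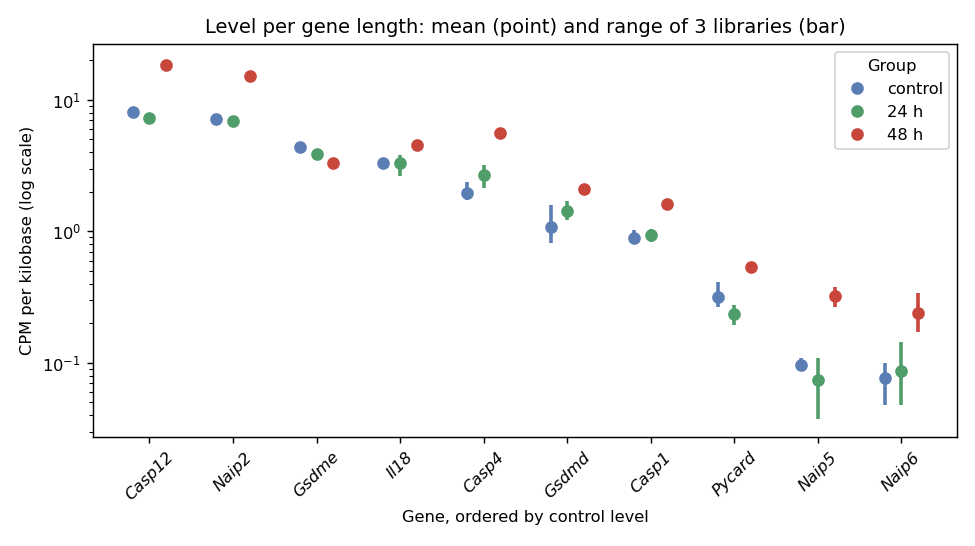
CPM per kilobase of gene length (vertical axis, log scale) for the 10 genes in the order of their control level (horizontal axis). Points are group means and bars the range of 3 libraries. Levels ran from 0.0765 for Naip6 to 8.16 for Casp12 in control, and at 48 h Casp4 passed Il18 and Gsdme on the gene lengths used.

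Neighbouring genes were examined because 6 of the members lie in 2 gene clusters. Within 100 kb of the caspase locus the table held no other gene. Within 100 kb of the Naip cluster 3 of 11 other genes were tested. At 48 h versus control Serf1 was higher by 0.82 on the log2 scale (adjusted p 2.21e-05), Smn1 lower with -0.35 (adjusted p 0.00139), and Bdp1 had 0.04 (adjusted p 0.770). The changes of Serf1 and Smn1 at 24 h versus control were 0.03 and 0.02, and neither was called. Around Gsdmd 7 of 10 other genes were tested. Naprt, the nearest tested gene at higher coordinates, was higher (0.66, adjusted p 2.02e-05), and Eef1d (-0.58), Pycrl (-0.52) and Gfus (-0.22) were lower. Leaving out control replicate 2 (adjusted p 0.0548) or 48 h replicate 1 (0.0660) ended the call of Gfus. Zc3h3 (0.01), the nearest tested gene at lower coordinates, was not called. Tigd5 (-0.24) and Zfp623 (-0.21) were not called either, and Zfp623 passed without 48 h replicate 1 (adjusted p 0.0297). Genes adjacent to the Naip cluster and to Gsdmd moved in both directions. Over all tested genes 22.0% were called higher and 24.4% lower at 48 h versus control. Nothing about these loci is read from so few neighbours.

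**Figure D4:**
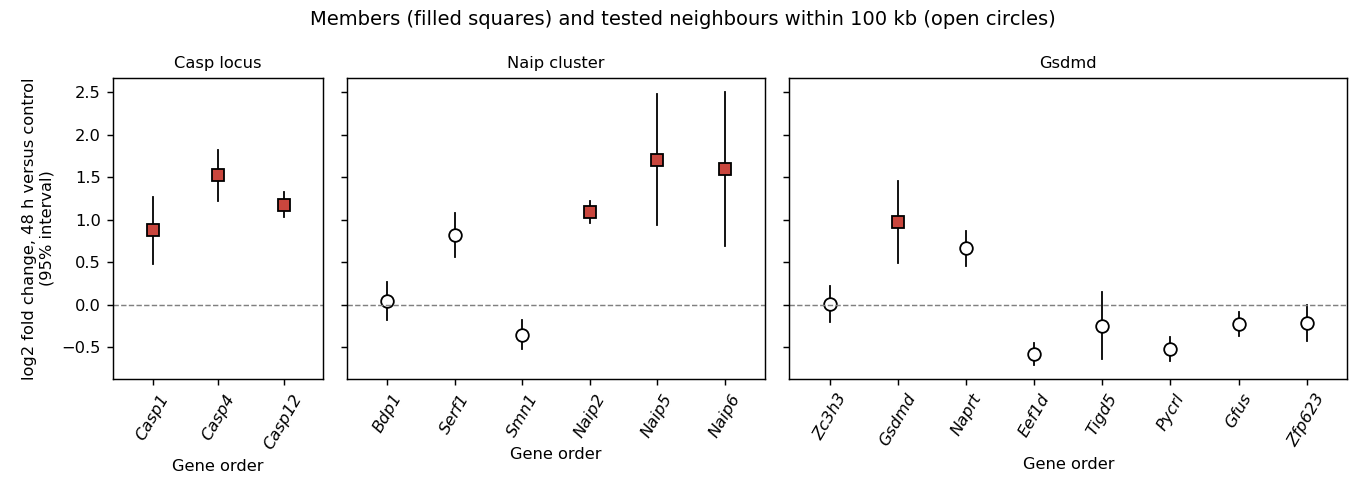
Log2 fold change at 48 h versus control with 95% interval (vertical axis) for members (filled squares) and tested neighbours within 100 kb (open circles), in gene order (horizontal axis) at the caspase locus, the Naip cluster and Gsdmd. All members lie above 0. Of the 10 neighbours, Serf1 and Naprt lie clearly above 0, and Smn1, Eef1d, Pycrl and Gfus below.

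NAIP proteins carry baculovirus IAP repeat (BIR) domains, and the 5 other BIR genes listed were compared. Of these, 1 was called higher and 1 lower at 48 h versus control, about what the shares of 22.0% and 24.4% over all tested genes give for 5 genes. Birc3, an inhibitor of apoptosis induced by NF-kB, was higher (0.50, adjusted p 0.00421), and Birc5, the mitotic protein survivin, was lower (-0.72, adjusted p 5.00e-09). Birc2 (0.05), Xiap (0.11) and Birc6 (0.10) were not called, though Xiap (adjusted p 0.0214) and Birc6 (adjusted p 0.0105) passed without control replicate 3. None was called at 24 h versus control by edgeR, and none had an unadjusted p under 0.05.

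Beyond the members, 75 other genes of the pathway were listed, and 50 had enough reads to be tested. At 48 h versus control 24 were higher, 5 lower and 21 not called, with a median log2 fold change of 0.14, beside 22.0% of all tested genes called higher and 24.4% lower. At 24 h versus control 4 were higher and 2 lower (median -0.007), beside 3.25% and 2.90% of all genes. For 48 h versus 24 h 21 were higher and 9 lower (median 0.17), beside 23.7% and 25.4%. The same shares apply to each group of the list given next, and nothing is read from groups of so few genes. The list and the members were not tested against each other.

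Most dedicated sensors were near or below detection. Of 14 listed, 4 were tested, of which Nod1, a peptidoglycan sensor (0.73), and Nlrc5, a regulator of MHC class I genes (0.71), were called higher at 48 h. Nlrp3 and Nlrc4, the partner of the NAIPs, had at most 6 counts in any library, Naip1 at most 5, Nlrp1b and Aim2 at most 1, and Nlrp1a 0. Differences between counts this low could not be judged. The NAIP transcripts were thus measured in libraries that held almost no Nlrc4 reads.

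Among adaptors and activation partners 13 genes were tested, 6 of which were higher at 48 h and 4 lower. Gbp5, a guanylate-binding protein of the interferon response, had 4.45, 3.51 and 3.31 CPM in control, 5.33, 5.79 and 4.58 CPM at 24 h and 16.5, 17.2 and 16.3 CPM at 48 h. Its log2 fold change of 2.13 (adjusted p 5.35e-10) was the largest of the 50 at 48 h versus control. Gbp5 belongs to a family of related genes, and whether its counts share reads with them was not examined. Zbp1, a sensor of Z-form nucleic acids, went from 22.8 ± 0.574 CPM in control to 26.6 ± 2.34 CPM at 24 h and 89.7 ± 4.01 CPM at 48 h (SD, n = 3), a change of 1.97 at 48 h versus control (adjusted p 5.13e-13). Gbp2 (0.70) and Gbp3 (0.59) were also higher, while Txnip, which binds NLRP3 (-0.67), Ripk2, the kinase downstream of NOD1 (-0.42), Mlkl, the executioner of necroptosis (-0.23), and Ripk3, which activates it (-0.21), were lower.

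Of 6 other caspases tested, 3 were called at 48 h versus control, all higher, by at most 0.49 on the log2 scale. These were Casp2 (0.40), Casp6 (0.49) and Casp9 (0.45), while Casp8 (-0.03) was among those not called. Ninj1, which ruptures the membrane after pore formation, was higher by 0.22 (adjusted p 0.0320). Its libraries overlapped, with 49.0 CPM in control replicate 2 and 47.5 CPM in 48 h replicate 3.

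Of the 7 tested cytokines, receptors and binding proteins, 4 were higher and 1 lower at 48 h. Il18bp, the soluble antagonist of interleukin-18, had 4.64, 6.70 and 5.26 CPM in control, 5.47, 5.53 and 3.31 CPM at 24 h and 9.19, 9.40 and 9.92 CPM at 48 h. Its change at 48 h versus control was 0.79 (adjusted p 0.00102), beside 0.46 for Il18 itself. Il33, an alarmin of the interleukin-1 family, was highest at 24 h, with 6.08, 6.29 and 7.51 CPM in control, 20.5, 17.9 and 21.6 CPM at 24 h and 10.1, 11.6 and 12.4 CPM at 48 h. It was called higher at 24 h (1.60, adjusted p 1.17e-07) and at 48 h versus control (0.78, adjusted p 6.46e-05), and lower at 48 h than at 24 h (-0.81). Il1b, the other main substrate of caspase-1, had at most 2 counts in any library and Il1a at most 3.

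Of 11 inhibitors and membrane repair genes 3 were higher at 48 h and none was called lower. Serpinb1a, which restrains inflammatory caspases, went from 11.7 ± 1.84 CPM in control to 9.48 ± 0.782 CPM at 24 h and 28.4 ± 0.793 CPM at 48 h (SD, n = 3), with a change of 1.28 (adjusted p 1.41e-08) at 48 h versus control. Trim30a was higher by 0.71, and Vps4b, part of the ESCRT repair machinery, by 0.19. Among ion channels and purinergic receptors P2rx4 was higher (0.44) and P2rx7, the ATP receptor upstream of NLRP3, was not called (-0.10). Of 5 tested transcription factors Irf1 (0.41), Irf2 (0.26), Nfkb1 (0.25) and Rela (0.14) were higher. Irf8 had 0 counts in every library.

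The 6 calls of the list at 24 h versus control were smaller apart from Il33, and several rested on single libraries. Nfkb1 was higher by 0.26 (adjusted p 0.00453). Il18rap, a chain of the interleukin-18 receptor, was higher by 0.54 (adjusted p 0.0498), a call that, among the fits with a library left out, held only in those without control replicate 1 or 24 h replicate 2 and reached an adjusted p of 0.215 without 24 h replicate 1. DESeq2 (0.0532) and limma-voom (0.0850) did not call Il18rap. Ripk2 was higher by 0.34 (adjusted p 0.0182) and lost its call without control replicate 2 (0.0600), 24 h replicate 1 (0.0568) or 24 h replicate 3 (0.0985). Irgm2, a gene of the interferon response, was lower (-0.29, adjusted p 0.0301). It lost its call without control replicate 1 (0.122) or 3 (0.0714), or 24 h replicate 1 (0.0550), 2 (0.0538) or 3 (0.178). Irgm2 did not pass in the fit of 2 groups either (0.0690). At 48 h versus control Irgm2 was instead called higher (0.38, adjusted p 0.000352).

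**Figure D5:**
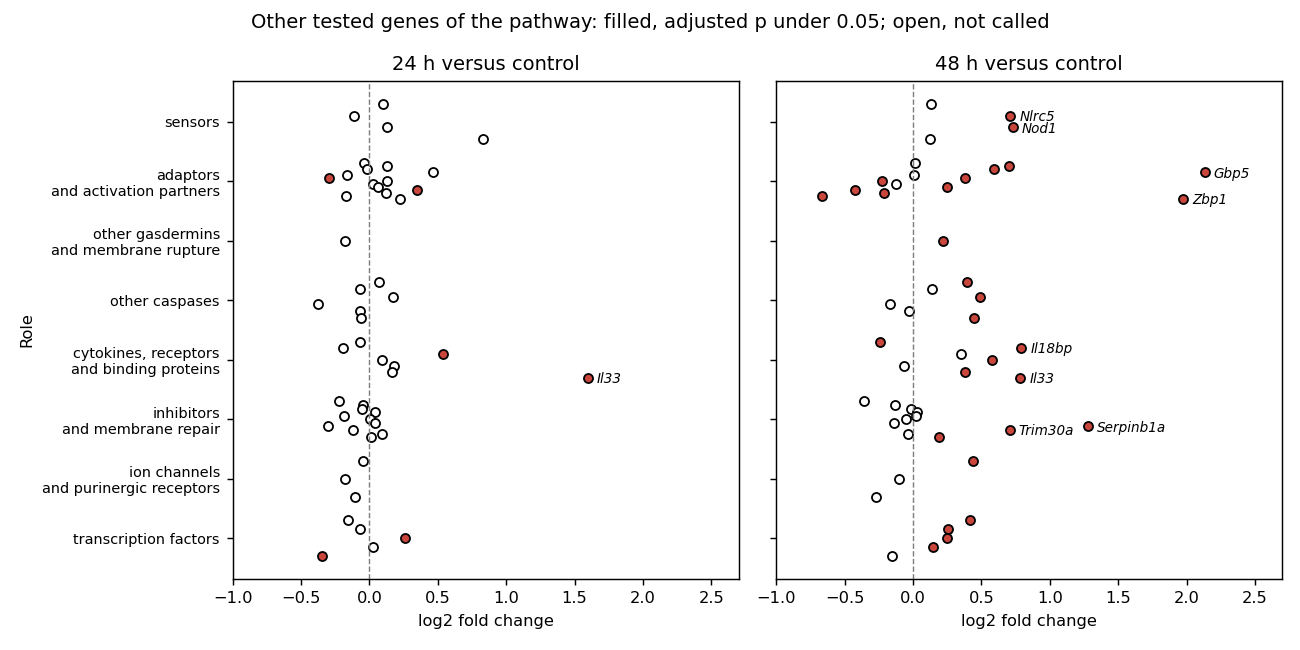
Log2 fold change (horizontal axis) of the 50 tested genes of the pathway list, grouped by role (vertical axis), at 24 h and 48 h versus control. Filled points had an adjusted p under 0.05, and called genes beyond 0.7 in size are named. At 24 h 6 points are filled, Il33 the farthest at 1.60. At 48 h 29 are filled, led by Gbp5 (2.13) and Zbp1 (1.97).

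Markers of other cell types were read beside these results. Of 10 chondrocyte markers, Acan and Col9a1 had 0 counts in every library and Col2a1 at most 7. The summed level was 1680 to 1713 CPM in control, 1563 to 1647 CPM at 24 h and 2125 to 2212 CPM at 48 h, and without Sox9 and Prg4 it was 5.56 to 6.86, 3.24 to 4.94 and 3.94 to 4.59 CPM. At 48 h versus control 3 of the 5 tested markers were called higher (Sox9 0.14, Prg4 0.38 and Comp 1.45) and 1 lower (Matn3 -1.25). Over all tested genes the shares were 22.0% and 24.4%. Comp, a cartilage matrix gene, had 3, 3 and 7 counts in control, 1, 4 and 4 at 24 h and 21, 13 and 12 at 48 h, so it was higher at 48 h as most members were. Of 12 macrophage and myeloid markers, Adgre1, Itgam, C1qa, C1qb and Tyrobp had 0 counts in every library and Ptprc at most 1. Their sum was 17.2 to 18.1 CPM in control, 22.6 to 24.3 CPM at 24 h and 18.5 to 21.1 CPM at 48 h, and without Cd14 and Csf1r 0.817 to 1.07, 0.634 to 1.24 and 0.693 to 0.958 CPM. Cd14 had 13.9, 12.5 and 13.4 CPM in control and 20.3, 19.1 and 22.0 CPM at 24 h. Csf1r had 3.14, 3.84 and 2.93 CPM in control and 1.53, 2.28 and 1.69 CPM at 24 h. Of the 3 tested myeloid markers, 1 was called higher and 1 lower at 24 h versus control, beside 3.25% and 2.90% of all tested genes. At 48 h versus control 1 was higher and 0 lower, beside 22.0% and 24.4%. The chondrocyte markers thus moved in both directions, and the part of chondrocyte transcripts in the members' changes was not tested.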

How the data were processed

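MLO-Y4 RNA was prepared by the authors with a directional kit, sequenced as read pairs, aligned with HISAT2 to GRCm39 and counted per gene with featureCounts (version 2.06 per the labels, although the sources differ). The deposited values are raw counts per gene for 9 libraries, and the strand and multi-mapping settings are not given in the sources used here. The methods also name RSEM, while the deposited counts are whole numbers.

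Counts were tested with edgeR 4.0.16 (R 4.3.3) by quasi-likelihood F tests on all 9 libraries, with 1 coefficient per group, TMM scaling, a filterByExpr minimum of 10 counts and Benjamini-Hochberg adjustment over the 13812 genes tested, which held 99.9% of the reads. A gene was called at an adjusted p under 0.05. The test was also run on simulated data, and the outcome is not reported here. CPM used TMM-scaled totals, and values per kilobase used the gene lengths in the table. The alternatives were other scalings and filters, DESeq2 1.42.0, limma-voom (limma 3.58.1), 2-group fits, a threshold of 0.01, a replicate block, leaving out each library and, chosen after seeing the data, thinning. The Naip sum replaced its 3 genes by 1 row before the fit.

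Named genes were the 10 members, per comparison the 5 called pathway genes with the largest change and at least 1 CPM in either group, the BIR genes, and neighbours within 100 kb. A few genes of the pathway list enter the counts but are not reported here. Other pathway genes are named as examples of their group, chosen after their values were seen. The members and lists were chosen with earlier results of these data known. Transcripts and start sites came from GENCODE and the GRCm39 genome, and transcripts were aligned with BLAST 2.17.0. Coordinates are those of the table. Pairs of replicates gave a chi-square per degree of freedom of 2.26 to 8.14 over genes, above that of counting noise alone, so none was merged.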

Additional observations from a re-analysis of the deposited data

Results flagged for a closer look

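For every one of the 10 genes the change over control differed between 24 h and 48 h, by the direct edgeR comparison of the 48 h and 24 h libraries. The log2 difference, 48 h minus 24 h, was 0.54 for Gsdmd, -0.21 for Gsdme, 0.79 for Casp1, 1.07 for Casp4, 1.34 for Casp12, 1.18 for Pycard, 0.46 for Il18, 1.12 for Naip2, 2.10 for Naip5 and 1.45 for Naip6. Over all tested genes 23.7% were higher and 25.4% lower in the same comparison. All 3 libraries of each group showed the direction for each gene. The differences of Gsdmd, Gsdme, Il18 and Naip6 lost their call when some single libraries were left out, as given with each gene.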

How the results depend on the processing

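Over 19 settings the members called higher at 48 h versus control numbered 7 to 9 and those called lower 1, and for 48 h versus 24 h 6 to 9 and 0 to 1. No member lower for 48 h versus 24 h was left after thinning (0) or at an adjusted p under 0.01 (0), and leaving out single libraries gave 0 to 1. At 24 h versus control, 1 member was higher with no filter on low counts, 0 to 1 were higher and 0 to 1 lower when single libraries were left out. Other pathway genes higher at 24 h numbered 2 at 0.01 and 2 to 4 without single libraries, and those lower 0 with 2 groups, 1 after thinning, 0 at 0.01 and 0 to 2 without single libraries. Other pathway genes lower for 48 h versus 24 h numbered 5 at 0.01. The changes at 24 h that turned sign were all near 0 or on few counts. Il18 had 0.0026 by relative log expression scaling, 0.011 with no filter, 0.0032 by DESeq2 and -0.12 to 0.13 without single libraries, and Naip5 had 0.022 after thinning. Without single libraries Casp1 ranged from -0.0059 to 0.19 and Naip6 from -0.41 to 0.45. At 48 h versus control Birc2, Birc6, Bdp1 and Zc3h3 also turned sign without single libraries (-0.0086 to 0.11, -0.038 to 0.28, -0.11 to 0.19 and -0.063 to 0.082). The cause was not tested. Among the members, thinning cost Pycard its call at 48 h versus control, and Gsdme and Il18 theirs for 48 h versus 24 h.

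Replicate numbers are shared among groups, but correlations of deviations between same-numbered libraries were -0.049 to 0.077 over 9 pairs, so the numbers were not taken as pairing. With a replicate block 8 members were higher and 1 lower at 48 h versus control, 0 and 0 at 24 h, and 9 and 1 for 48 h versus 24 h.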
